A study of Bos taurus with 12 samples.

Results

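Bovine embryonic stem cells kept on a reduced feeder layer with added pyruvate were compared with the same cells on the full layer, to see what pyruvate alone leaves different, reading 1/7MC as a layer reduced from MC, as the group names and the series title give it. The comparison sets the 3 libraries of the group 1/7MC+Pyr (the pyruvate libraries) against the 3 libraries of the group MC, which makes 6 of the 12 libraries of the series. They were taken by their column names in the deposited count table. All 12 libraries come from 1 wild-type Bos taurus line, F7, so no group samples a second line. MC carries the treatment label NC, and 1/7MC, the reduced layer without an addition, and 1/7MC+Pyr+FGF, which adds a recombinant human basic fibroblast growth factor (FGF), serve here only as values to set beside the comparison. The labels give no dose, duration, passage number or feeder species, and they do not spell out MC, so the group names are used as given. No label says that the replicates were grown separately, so p-values reflect the spread among these libraries alone, which may be technical.

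Feeder layers are sheets of growth-arrested fibroblasts that supply adhesion, matrix and secreted factors to stem cells. Pyruvate is the end product of glycolysis. It is either reduced to lactate by lactate dehydrogenase or carried into mitochondria, where pyruvate dehydrogenase feeds it to the tricarboxylic acid cycle, and pyruvate dehydrogenase kinases (PDK) restrain that entry. Stem cells in culture usually run a high glycolytic flux, keep epithelial contacts, and are held in the pluripotent state by factors such as OCT4 (the product of POU5F1) and NANOG.

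The 6 libraries held 27373759 to 35486531 counts. The gene models behind MC replicates 2 and 3 differ from those behind the other libraries: of 128 sets of entries that share an Ensembl identifier, 83 held differing counts in MC replicate 1 and 0 in MC replicates 2 and 3. Among genes with a mean of at least 1 CPM (counts scaled to library size), replicate 1 lay more than 1 log2 unit from the others for 850 of 12264 genes in MC, against 49 of 12360 in 1/7MC+Pyr. The first principal component of these 6 libraries held 70.7% of the variance and separated the groups, with MC replicate 1 nearer to the 1/7MC+Pyr libraries than MC replicates 2 and 3 were. A gene is therefore called changed here only if edgeR's quasi-likelihood test gave an adjusted p under 0.05 and the direction also held when MC was represented by replicate 1 alone. Genes that pass with an adjusted p under 0.05 both ways are said to pass both fits. Differences are given as log2 of 1/7MC+Pyr over MC unless another group is named, ± SE, from 3 libraries per group, and adjusted p-values are from edgeR's quasi-likelihood test with Benjamini-Hochberg adjustment over all genes. Levels are CPM, in the order of replicates 1 to 3, and a range is the lowest and highest of the 3 libraries. No strand marking is stated, so genes that overlap, lie antisense or have near-identical copies carry uncertain values.

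Markers of the labelled cell type were abundant on both sides. The summed level of POU5F1, NANOG, SALL4, PRDM14, LIN28A and DNMT3B was 3893 to 4020 CPM in MC and 3907 to 4175 CPM in 1/7MC+Pyr. Fibroblast and feeder markers moved with the groups: the sum over 32 such genes was 10316 to 10504 CPM in MC and 34396 to 51153 CPM in 1/7MC+Pyr. For comparison, 1/7MC had 28440 to 39467 CPM. Endothelial and blood markers (PECAM1, CDH5, TEK, PTPRC, SPI1 and TYROBP) summed to 16.3 to 17.4 CPM in MC and 14.3 to 17.3 CPM in 1/7MC+Pyr, nearly all of it TEK. TYROBP was at 0 in 3 of the 6 libraries and SPI1 in 1.

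Of 13920 genes tested, 3866 (27.8%) were changed, 2115 (15.2%) higher and 1751 (12.6%) lower in 1/7MC+Pyr than in MC. In both fits 1300 genes (9.34%) passed, 902 (6.48%) higher and 398 (2.86%) lower, and 872 of them differed by at least 1 log2 unit, 652 higher and 220 lower. The CPM of the 3 libraries of one group did not overlap those of the other for 6002 genes (43.1%). Among the 1300 genes that passed both fits this was so for 1298, so lack of overlap adds little for such genes. A further 83 genes passed the test but changed direction with MC replicate 1 alone, and all 83 were lower in 1/7MC+Pyr. In the same fit the count of genes with an adjusted p under 0.05 was 3949 for this comparison before the direction rule, 6268 for 1/7MC against MC and 2525 for 1/7MC+Pyr against 1/7MC. These comparisons share libraries, so their own values are set side by side below and no overlap between them is counted.

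**Figure D1:**
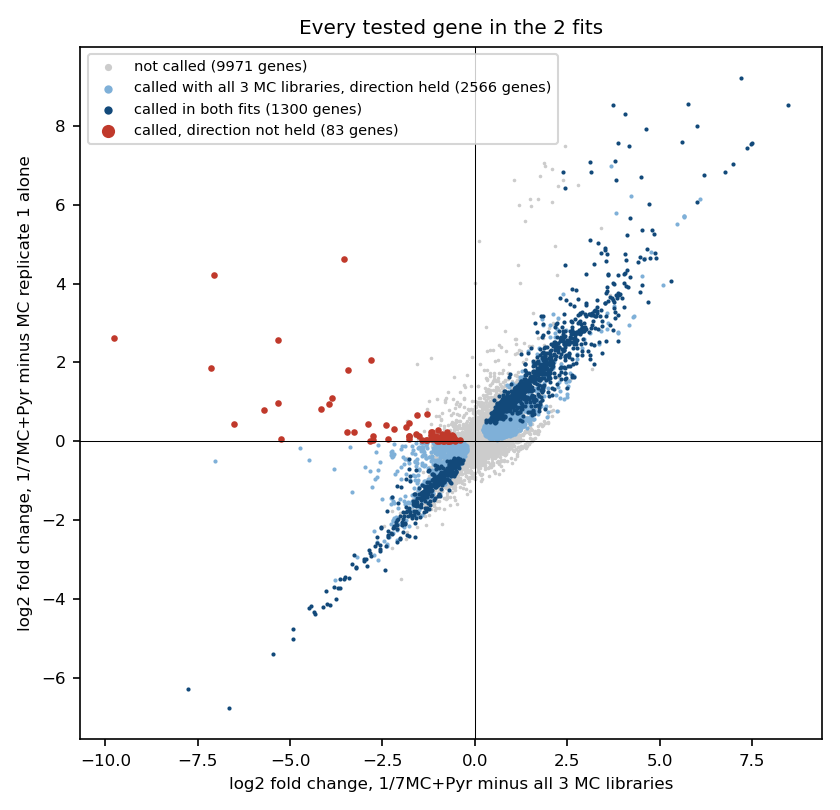
Log2 fold change of 1/7MC+Pyr from MC for each tested gene, with all 3 MC libraries (x axis) and with MC replicate 1 alone (y axis), coloured by call. The 1300 genes called in both fits (dark blue) lie along the diagonal, and the 83 genes whose direction was not held (red) lie to the left of 0 and above it.

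By gene group, the median member was more than 1 log2 unit above MC in the lists of fibroblast and feeder markers, of the TGF-beta response and of the interferon response. It was more than 1 log2 unit below MC in the HOX cluster (-1.55), of which 9 genes with low counts could be tested. Eye field, immediate early, epithelial junction and glycolysis genes also had medians below MC, at -0.85 to -0.45. The median over all tested genes was -0.01. Genes of cholesterol synthesis, of the tricarboxylic acid cycle and of the shared pluripotency list had medians close to it. The plot of list medians gives all 38 lists with their counts. These lists and the comparison were chosen with earlier results of these data known, so the counts describe the lists and test nothing about them. Counts of changed members are to be read beside the shares over all genes. Those were 15.2% higher and 12.6% lower, and 6.48% and 2.86% in both fits.

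**Figure D2:**
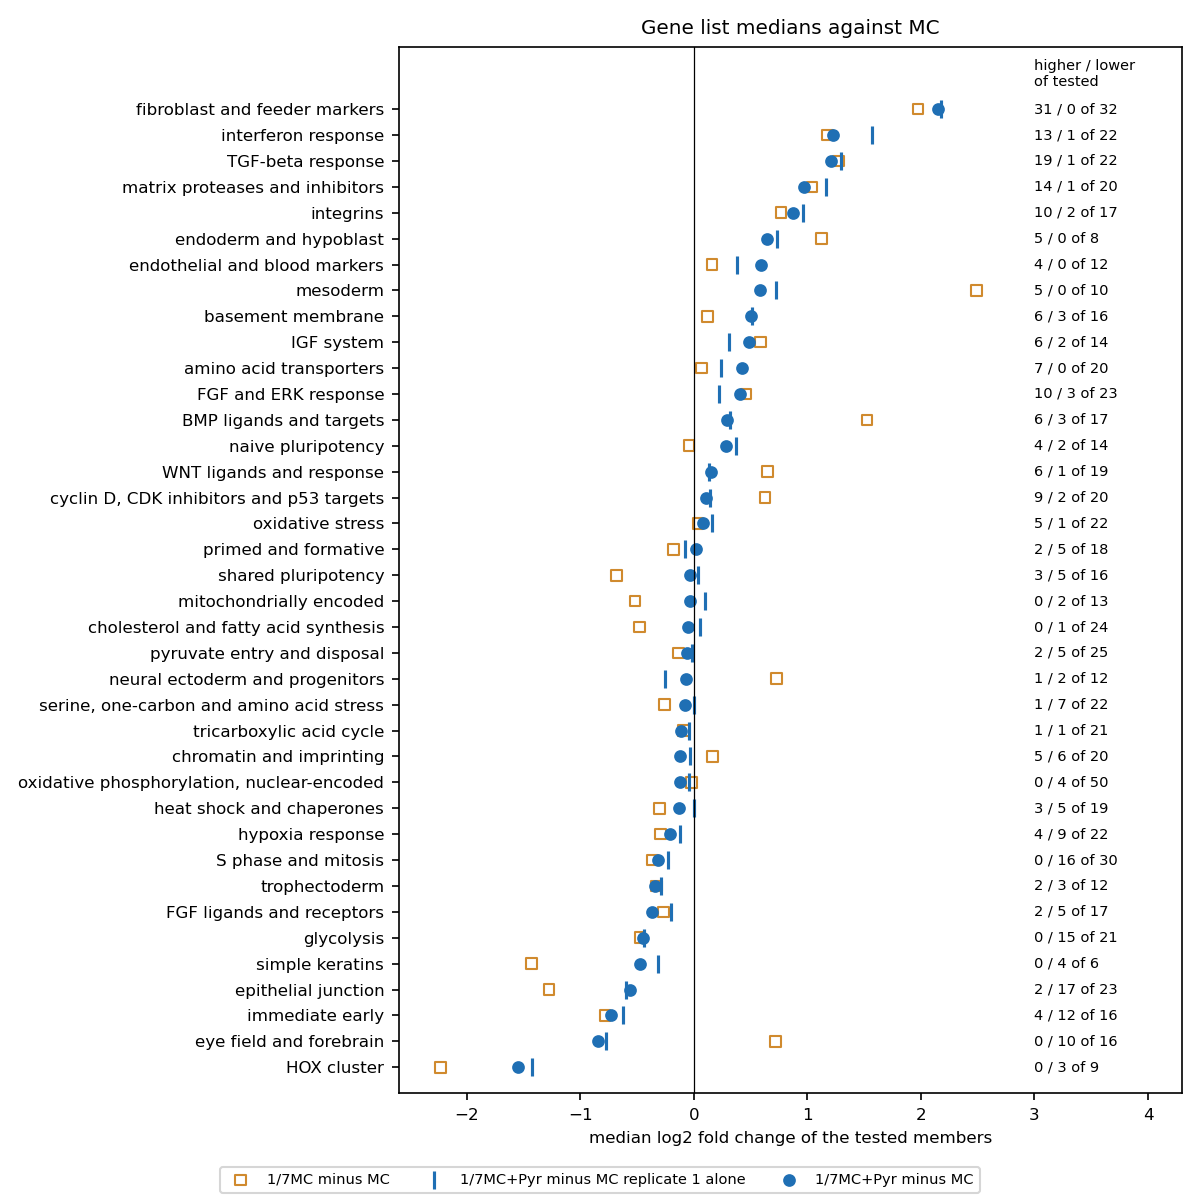
Median log2 difference from MC of the tested members of 38 gene lists, for 1/7MC+Pyr with all MC libraries, for 1/7MC+Pyr with MC replicate 1 alone and for 1/7MC, with the number of members higher and lower at the right. The fibroblast list has the highest median (2.15), and cholesterol synthesis sits at -0.05 with 1/7MC+Pyr against -0.48 with 1/7MC.

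Fibroblast and matrix genes were nearly all above MC. Of 32 tested members of that list, 31 were higher in 1/7MC+Pyr and 0 lower, 26 of them in both fits, and the median difference was 2.15, or 2.18 with MC replicate 1 alone. COL1A2, a chain of type I collagen, measured 273, 259 and 261 CPM in MC replicates 1 to 3 and 6007, 3594 and 4947 CPM in 1/7MC+Pyr. The log2 difference was 4.20 ± 0.22 (SE; adjusted p = 1.15e-07) and 4.17 with MC replicate 1 alone, and the lowest pyruvate library stood far above every MC library. COL1A1, its partner chain, rose from 1183–1221 to 5737–11554 CPM (2.81 ± 0.29, adjusted p = 1.81e-05). FN1 encodes fibronectin, the glycoprotein that links collagen to integrins. It measured 627, 613 and 609 CPM in MC and 4907, 3017 and 4103 CPM in 1/7MC+Pyr, a log2 difference of 2.70 ± 0.27 (adjusted p = 1.48e-05). 1/7MC alone had 1636, 2822 and 1404 CPM, and 1/7MC+Pyr exceeded it by 1.04 ± 0.25 (adjusted p = 0.0142). In these bulk libraries fewer or more cells of a type and less or more RNA per cell cannot be told apart.

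Among the other members, POSTN, the matrix protein periostin, was higher by 4.11 ± 0.15 (adjusted p = 1.28e-08) and COL6A3, a chain of the microfibrillar type VI collagen, by 4.09 ± 0.30 (adjusted p = 1.19e-06). TNC, the adhesion-modulating protein tenascin C, rose from 172–178 to 1505–2458 CPM. Smaller differences were seen for the intermediate filament gene VIM (0.89 ± 0.14, from 2252–2620.4 to 4434–4934 CPM) and the surface glycoprotein gene THY1 (2.28 ± 0.19, from 3.28–3.71 to 13.5–23.1 CPM). In every one of these 5 genes the lowest pyruvate library exceeded the highest MC library, beside 43.1% of all genes without overlap either way. DPT, a dermatopontin, had 1 count over the 3 MC libraries and 64 over the 3 pyruvate libraries, so no fold is given. The member that was not called was PDGFRA, a growth factor receptor of mesenchymal cells: it measured 1.32, 1.95 and 1.89 CPM in MC, 1.92, 1.21 and 2.17 CPM in 1/7MC+Pyr and 6.04, 5.89 and 5.28 CPM in 1/7MC. Its log2 difference from MC was 0.035 ± 0.25 (95% interval -0.51 to 0.58), and that of 1/7MC was 1.74 ± 0.24 (adjusted p = 9.52e-05).

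Proteases that cut the matrix, listed with their inhibitors, were mostly higher too. Of 20 tested, 14 were higher and 1 lower, with 10 and 1 in both fits. PLAUR, the urokinase receptor, measured 2.66, 2.59 and 2.67 CPM in MC, 7.25, 6.26 and 6.04 CPM in 1/7MC and 33.8, 19.1 and 25.4 CPM in 1/7MC+Pyr. It lay 3.30 ± 0.19 above MC (adjusted p = 2.09e-07) and 2.00 ± 0.18 above 1/7MC (adjusted p = 1.76e-05), and the 3 groups did not overlap. The collagenase gene MMP13 rose from 0.308–0.557 to 4.37–9.77 CPM (4.10 ± 0.34, adjusted p = 3.35e-06) and the gelatinase gene MMP9 from 3.95–4.28 to 26.2–54.9 CPM (3.22 ± 0.27). ADAMTS9, a protease that cuts proteoglycans, was the exception, at 13.4, 12.6 and 12.3 CPM in MC and 3.02, 2.53 and 2.41 CPM in 1/7MC+Pyr (-2.27 ± 0.16, adjusted p = 9.38e-07); 1/7MC differed from MC by -0.052 ± 0.14 (adjusted p = 0.791).

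Integrins, the receptors that bind matrix, were mostly above MC. Of 17 tested, 10 were higher and 2 lower, 6 and 2 in both fits. ITGA11, a collagen-binding subunit, rose from 1.09–1.22 to 8.03–14.7 CPM (3.17 ± 0.27), ITGB5 from 9.75–13.1 to 58.4–89.6 CPM (2.64 ± 0.17) and ITGB3 from 28.2–33.9 to 121–152 CPM (2.16 ± 0.16). ITGA1, which pairs with ITGB1 to bind collagen, measured 3.39, 0.894 and 0.928 CPM in MC and 24.9, 23.0 and 23.9 CPM in 1/7MC+Pyr; its difference was 3.74 ± 0.40 over all MC libraries and 2.83 with MC replicate 1 alone. The lower members were the laminin receptor gene ITGA7 (-1.29 ± 0.20, adjusted p = 4.16e-04) and ITGB4, the partner of ITGA6 in hemidesmosomes (-0.91 ± 0.14, adjusted p = 3.64e-04). ITGA6 itself lay -0.35 ± 0.13 from MC (adjusted p = 0.0543).

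The basement membrane list held members on both sides, 6 higher and 3 lower of 16. COL4A1 and COL4A2, the common chains of type IV collagen, rose by 2.76 ± 0.24 and 2.54 ± 0.26 (adjusted p = 4.61e-06 and 2.20e-05). The chains COL4A5 and COL4A6 fell, from 189–207 to 97.9–112 CPM and from 63.1–79.3 to 34.1–43.7 CPM. LAMA4, a laminin chain of mesenchymal and vessel membranes, was higher by 3.26 ± 0.22. All 5 of these genes passed both fits. The fibroblast marker sum moved in the same direction as the proteases and integrins, and its part in those results was not tested.

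**Figure D3:**
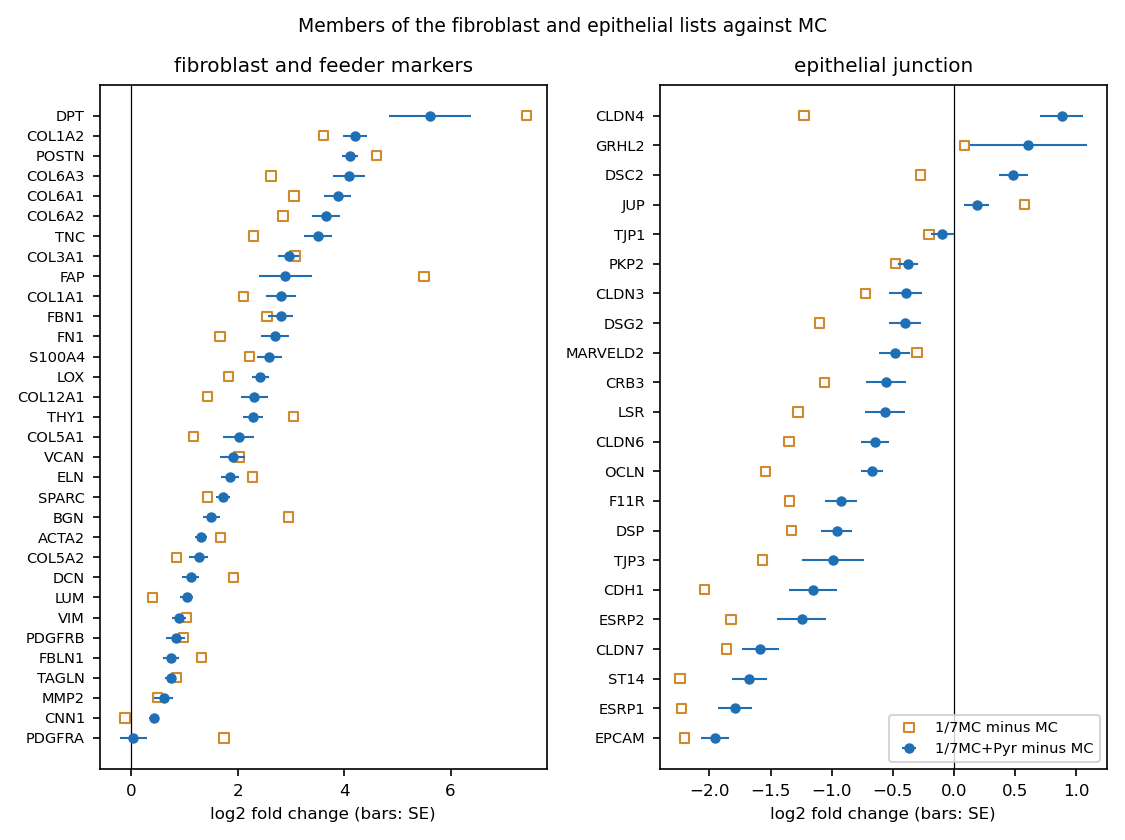
Log2 fold change from MC of tested fibroblast markers (left) and epithelial junction genes (right), as points with SE bars for 1/7MC+Pyr and open squares for 1/7MC; the value of DPT rests on 1 count in MC. COL1A2 lies at 4.20 and EPCAM at -1.96 with pyruvate, and CLDN4 lies at 0.88 with pyruvate but at -1.23 in 1/7MC.

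Epithelial junction genes remained below MC. Of 23 tested, 17 were lower and 2 higher, with 9 and 0 in both fits, and the median was -0.56 against -1.28 for 1/7MC. EPCAM, an epithelial adhesion molecule, measured 73.0, 87.8 and 82.8 CPM in MC and 20.6, 20.3 and 21.8 CPM in 1/7MC+Pyr (-1.96 ± 0.11, adjusted p = 2.09e-07; -1.79 with MC replicate 1 alone). Every pyruvate library lay far below every MC library. 1/7MC, at 18.99, 16.0 and 18.0 CPM, was 0.24 ± 0.11 from 1/7MC+Pyr (adjusted p = 0.163). CDH1, which encodes E-cadherin, measured 372, 561 and 555 CPM in MC, 115, 146 and 101 CPM in 1/7MC and 254, 188 and 226 CPM in 1/7MC+Pyr. Its difference from MC was -1.15 ± 0.20 (adjusted p = 0.00103), and -0.72 with MC replicate 1 alone (adjusted p = 0.0733), so it passed only with all MC libraries. The pyruvate libraries exceeded those of 1/7MC by 0.89 ± 0.20 (adjusted p = 0.00825).

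Other junction genes followed the same pattern. ESRP1, an epithelial splicing regulator, was lower (-1.79 ± 0.14), as were ST14, the membrane protease matriptase (-1.67 ± 0.14), and CLDN7, a claudin of tight junctions (-1.58 ± 0.15), and each passed both fits. DSP, the desmosome linker desmoplakin, fell from 419–436 to 208–231 CPM. The 2 members above MC were the claudin gene CLDN4 (2.39–3.28 CPM in MC, 4.40–5.75 CPM in 1/7MC+Pyr; 0.88 ± 0.17, adjusted p = 0.00268) and the desmosomal cadherin gene DSC2 (0.48 ± 0.12, adjusted p = 0.0097). Neither passed with MC replicate 1 alone, at adjusted p = 0.142 and 0.304. The scaffold gene TJP1 differed by -0.094 ± 0.09 (adjusted p = 0.467). Of 6 simple keratins, 4 were lower, KRT7 the furthest at -1.64 ± 0.15 (adjusted p = 6.12e-06), and KRT8 measured 953, 1180.4 and 1205 CPM in MC and 769.7, 867 and 768 CPM in 1/7MC+Pyr. Only KRT7 passed both fits. Of the 4, leaving out 1/7MC+Pyr replicate 3 or MC replicate 2 kept 1 called, and leaving out MC replicate 3 kept 2. The fibroblast marker sum given above moved with these genes in the opposite direction, and its part in the result was not tested.

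POU5F1, DNMT3B and SALL4, which belong to the shared pluripotency list, were not called different from MC, whereas 8 of the 16 tested genes of that list were, beside 27.8% of all genes. POU5F1 measured 1120.2, 1073 and 1087 CPM in MC, 848, 671 and 825 CPM in 1/7MC and 1127, 1192 and 1178 CPM in 1/7MC+Pyr. The difference from MC was 0.092 ± 0.12 (95% interval -0.18 to 0.36; adjusted p = 0.608), while 1/7MC+Pyr exceeded 1/7MC by 0.58 ± 0.12 (adjusted p = 0.00702). DNMT3B, a DNA methyltransferase abundant in pluripotent cells, measured 1682–1717 CPM in MC and 1796–1962 CPM in 1/7MC+Pyr (0.14 ± 0.09, 95% interval -0.045 to 0.33). SALL4, a zinc-finger factor of the same network, measured 496, 407 and 393 CPM in MC and 410.4, 404 and 411 CPM in 1/7MC+Pyr (-0.082 ± 0.12, 95% interval -0.33 to 0.17). The intervals of these genes stay inside 1 log2 unit, which was so for 8 of the 16 tested genes of the list, a smaller share than the 9654 of all 13920 genes.

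NANOG, FOXD3 and PRDM14 were the members above MC. NANOG measured 34.1, 40.3 and 40.9 CPM in MC, 43.3, 37.5 and 40.5 CPM in 1/7MC and 62.0, 81.2 and 75.8 CPM in 1/7MC+Pyr, so every pyruvate library lay above all libraries of the other 2 groups. The difference from MC was 0.92 ± 0.15 (adjusted p = 7.55e-04) and 1.11 with MC replicate 1 alone (adjusted p = 0.00474); from 1/7MC it was 0.85 ± 0.15 (adjusted p = 0.00216). FOXD3, a forkhead factor of pluripotent and neural crest cells, was higher by 1.22 ± 0.20 (adjusted p = 6.68e-04). LIN28A, an RNA-binding repressor of let-7 processing, remained lower, at 563, 608 and 584 CPM in MC and 395, 463 and 433 CPM in 1/7MC+Pyr (-0.44 ± 0.10, adjusted p = 0.00729), but did not pass with MC replicate 1 alone (-0.37, adjusted p = 0.18). PRDM14, a repressor that protects the pluripotent state, was higher by 0.27 ± 0.09 (adjusted p = 0.0358; 0.178 with MC replicate 1 alone). It also lost the call with a stricter low-count filter (adjusted p = 0.0855), with a replicate block (0.0594), and when any 1 MC library or 1/7MC+Pyr replicate 1 or 3 was left out (0.0717 to 0.117). Of the 16 shared genes tested, 3 were higher and 5 lower, 2 and 2 in both fits. The members lower in both fits, EPCAM and ESRP1, are also on the epithelial list.

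**Figure D4:**
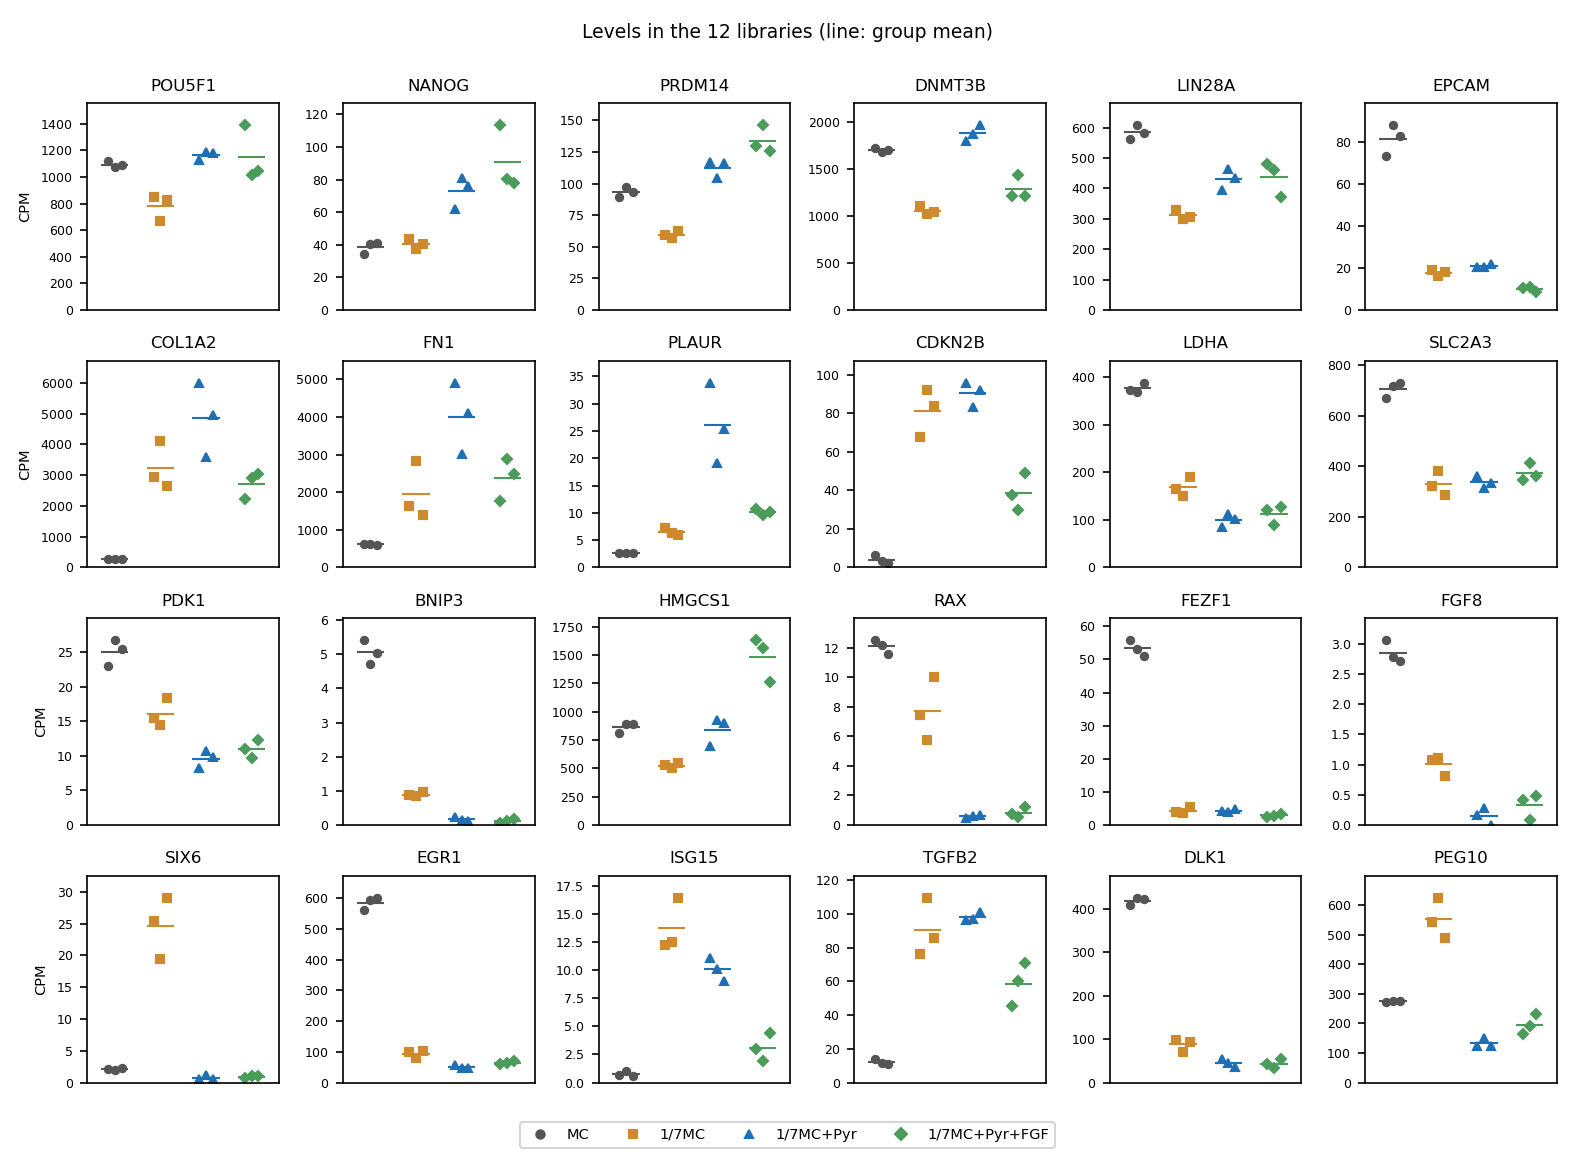
CPM of 24 named genes in each of the 12 libraries, with a point per library, a line at the group mean and 1 colour and marker per group. POU5F1 with pyruvate (1127–1192 CPM) sits beside MC, NANOG lies above MC and 1/7MC, and LDHA and RAX lie below both.

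Genes linked to naive and primed states moved without a common direction. Among 14 tested naive-state genes 4 were higher and 2 lower, 2 and 2 in both fits. STAT3, the transducer of LIF signals, rose from 26.1–27.7 to 51.1–53.1 CPM (0.94 ± 0.10, adjusted p = 1.83e-05), and IL6ST, the shared receptor chain upstream of it, from 19.3–21.2 to 32.2–40.3 CPM (0.84 ± 0.15). KLF4 and TFAP2C, transcription factors of the naive network, were lower (-1.13 ± 0.19 and -1.19 ± 0.17, adjusted p = 0.00108 and 2.17e-04). Among 18 tested primed and formative genes 2 were higher and 5 lower, 2 and 2 in both fits. OTX2, a factor of the primed state and of the forebrain, measured 180.1, 161 and 159 CPM in MC and 156, 178 and 164 CPM in 1/7MC+Pyr, overlapping, with an interval of -0.21 to 0.21. POU3F1, a neural POU factor, was lower (-1.38 ± 0.13) as was SALL2 (-0.57 ± 0.08), and LEF1, a transcriptional partner of beta-catenin, was higher by 1.55 ± 0.18 (adjusted p = 4.30e-05). The other member higher in both fits was THY1, which is given above among the fibroblast markers. Leaving out replicate 2 or 3 of MC turned the 5 lower genes into 2, and leaving out 1/7MC+Pyr replicate 1 into 3.

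Glycolytic genes remained below MC. Of 21 tested, 15 were lower and 0 higher, 8 of the lower in both fits, and the median was -0.45, against -0.47 for 1/7MC. LDHA, the lactate dehydrogenase subunit that favours lactate formation, measured 375, 370.1 and 389 CPM in MC, 165, 150.3 and 189.9 CPM in 1/7MC and 85.5, 112 and 101 CPM in 1/7MC+Pyr. It lay -1.92 ± 0.15 from MC (adjusted p = 1.62e-06; -1.90 with MC replicate 1 alone) and -0.76 ± 0.14 from 1/7MC (adjusted p = 0.00298), and the 3 groups did not overlap. SLC16A3, the lactate exporter MCT4, measured 5.32, 5.46 and 4.64 CPM in MC and 1.34, 0.518 and 1.21 CPM in 1/7MC+Pyr (-2.35 ± 0.31, adjusted p = 1.42e-04), and 1/7MC differed from MC by -2.56 ± 0.31. SLC2A3, a high-affinity glucose transporter, measured 671, 718 and 729 CPM in MC and 362, 312 and 334 CPM in 1/7MC+Pyr (-1.07 ± 0.11, adjusted p = 2.38e-05). In all of these genes the pyruvate libraries lay below MC without overlap, beside 43.1% of all genes without overlap either way.

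Along the pathway the differences were smaller. GAPDH, the dehydrogenase of the middle of glycolysis, fell from 2176–2423 to 1414–1619.9 CPM (-0.62 ± 0.10, adjusted p = 6.22e-04). GPI, an isomerase (-0.56 ± 0.08), and HK2, a hexokinase (-0.51 ± 0.14, adjusted p = 0.0178), were lower too. Without 1/7MC+Pyr replicate 1, HK2 had an adjusted p of 0.0649. PKM, the last enzyme before pyruvate, measured 2580.0–2609 CPM in MC and 1855–1937 CPM in 1/7MC+Pyr (-0.46 ± 0.08, adjusted p = 0.00103; 0.0569 with MC replicate 1 alone). SLC2A1, the general glucose transporter, overlapped, at 159, 171 and 166 and 192, 136 and 159.9 CPM (-0.022 ± 0.15, 95% interval -0.34 to 0.30). TPI1, another enzyme of the pathway, measured 337, 1.02 and 0.928 CPM in MC and 235, 239 and 211 CPM in 1/7MC+Pyr, so the sign depends on the MC library used and no difference is given.

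Among 25 tested genes of the list for pyruvate entry and disposal, 2 were higher and 5 lower than MC, a share near the 27.8% of all genes. In both fits 2 were higher and 3 lower, beside 9.34% of all genes, and without MC replicate 1 the higher count was 5. PDK1, a kinase that switches pyruvate dehydrogenase off, measured 23.1, 26.7 and 25.5 CPM in MC, 15.6, 14.5 and 18.3 CPM in 1/7MC and 8.26, 10.7 and 9.84 CPM in 1/7MC+Pyr. It lay -1.39 ± 0.14 from MC (adjusted p = 1.48e-05) and -0.75 ± 0.14 from 1/7MC (adjusted p = 0.00262), below both without overlap. PDK4, another such kinase, held 1 to 5 counts in each library of MC (0.112, 0.0958 and 0.0371 CPM) and of 1/7MC+Pyr (0.171, 0.0863 and 0.0710 CPM), whereas 1/7MC had 1.18, 0.716 and 1.96 CPM. The 1/7MC+Pyr libraries lay -3.52 ± 0.51 from 1/7MC (adjusted p = 5.84e-04). MPC1 and MPC2, the 2 subunits of the mitochondrial pyruvate carrier, differed from MC by 0.37 ± 0.16 and -0.26 ± 0.17 (95% intervals 0.018 to 0.72 and -0.63 to 0.10). PDHA1, the catalytic subunit of pyruvate dehydrogenase, differed by -0.18 ± 0.09 (interval -0.37 to 0.012), LDHB by -0.30 ± 0.19 (interval -0.70 to 0.10) and SLC16A1, the monocarboxylate carrier MCT1, by 0.29 ± 0.11 (interval 0.052 to 0.53). The remaining genes lower than MC in both fits, SLC16A3 and LDHA, are given above. The higher genes of the list were ME1, the cytosolic malic enzyme (0.54 ± 0.12, adjusted p = 0.00538), and ALDH1L2 (1.02 ± 0.12, adjusted p = 6.99e-05). ALDH1L2 is a mitochondrial folate enzyme, so the higher count is not one of pyruvate entry or disposal alone.

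**Figure D5:**
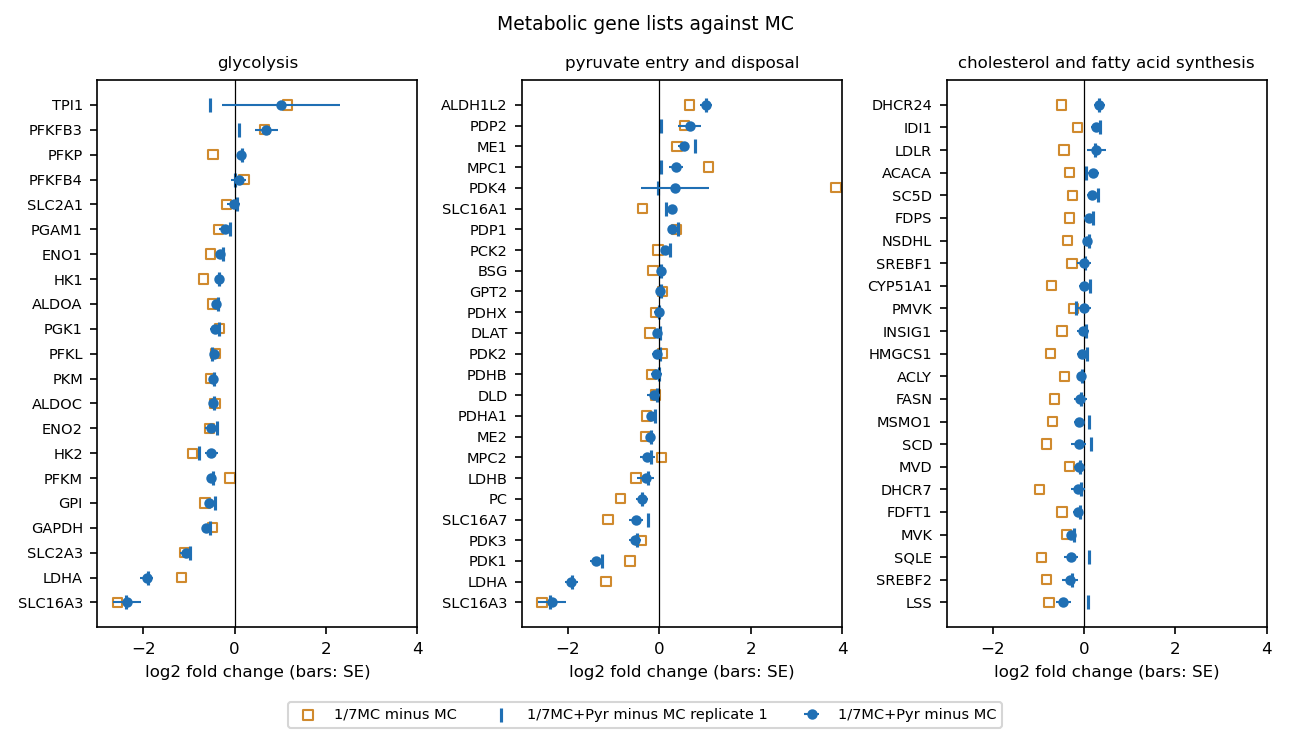
Log2 difference from MC of tested members of the lists for glycolysis (left), pyruvate use (middle) and lipid synthesis (right), with SE bars for 1/7MC+Pyr and marks for MC replicate 1 alone and for 1/7MC. LDHA and PDK1 lie further below MC with pyruvate than in 1/7MC, whereas the cholesterol genes gather near 0 with pyruvate and below it in 1/7MC.

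Mitochondrial and lipid genes were close to MC. Of 21 genes of the tricarboxylic acid cycle, 1 was higher, 1 lower and 0 passed both fits, and 19 had a 95% interval inside 1 log2 unit. Of 50 nuclear-encoded genes of oxidative phosphorylation 4 were lower, and 46 intervals were inside 1 log2 unit. Only NDUFS8, a complex I subunit, passed both fits (-0.57 ± 0.10, adjusted p = 9.35e-04). COX6B1, a complex IV subunit, stood at 29.5, 111 and 126 CPM in MC and 28.4, 22.4 and 30.1 CPM in 1/7MC+Pyr, with a difference of -1.71 ± 0.40 that shrank to -0.11 with MC replicate 1 alone. Of 13 mitochondrially encoded genes 2 were lower and 0 passed both fits, and the median was -0.04, against -0.52 for 1/7MC.

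All 24 tested genes of cholesterol and fatty acid synthesis had intervals inside 1 log2 unit of MC, 1 was lower and 0 passed both fits. HMGCS1, which makes the precursor of mevalonate, measured 813, 892 and 890.2 CPM in MC, 527, 499 and 545 CPM in 1/7MC and 699, 929 and 898 CPM in 1/7MC+Pyr. It differed from MC by -0.039 ± 0.12 (95% interval -0.31 to 0.23) and from 1/7MC by 0.68 ± 0.12 (adjusted p = 0.0023). FASN, the fatty acid synthase, differed from MC by -0.083 ± 0.14 (interval -0.39 to 0.22). The member called lower was MVK, mevalonate kinase (-0.28 ± 0.09, adjusted p = 0.0357; 0.41 with MC replicate 1 alone).

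Targets of the hypoxia response moved both ways, 4 of 22 higher and 9 lower, with 3 and 4 in both fits. BNIP3, a mitochondrial receptor for mitophagy, measured 5.41, 4.72 and 5.05 CPM in MC, 0.877, 0.849 and 0.953 CPM in 1/7MC and 0.240, 0.144 and 0.107 CPM in 1/7MC+Pyr. Its difference was -4.92 ± 0.29 from MC (adjusted p = 2.32e-07) and -2.43 ± 0.32 from 1/7MC (adjusted p = 2.80e-04). CA9, a carbonic anhydrase at the cell surface, fell from 4.50–5.83 to 0.949–1.38 CPM (-2.12 ± 0.24). The members above MC in both fits act on collagen: PLOD2 hydroxylates its lysines (2.86 ± 0.14), LOX cross-links it (2.42 ± 0.16) and P4HA1 hydroxylates its prolines (0.88 ± 0.13). VEGFA, a vessel growth factor, was lower (-0.49 ± 0.17, adjusted p = 0.0465; 0.691 with MC replicate 1 alone).

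Genes of serine and one-carbon metabolism and of amino acid stress were 1 higher and 7 lower of 22, beside 27.8% of all genes. In both fits 1 was higher and 4 lower, beside 9.34% of all genes. The synthesis enzymes PHGDH and PSAT1 differed by 0.19 ± 0.09 and -0.11 ± 0.13 (intervals -0.011 to 0.39 and -0.39 to 0.17), and in 1/7MC PSAT1 had been 1.10 ± 0.13 from MC (adjusted p = 2.61e-05). SHMT1, the cytosolic serine hydroxymethyltransferase, was lower (-1.51 ± 0.18, adjusted p = 5.09e-05). The stress genes ATF3 and CHAC1 were lower (-1.19 ± 0.16 and -1.34 ± 0.22), and NUPR1 was higher, at 1.54–1.85 CPM against 0.223–0.543 CPM in MC (2.25 ± 0.34). Of 20 amino acid transporters 7 were higher, 2 of them in both fits, beside 15.2% and 6.48% of all genes. Those 2 were SLC43A2, a carrier of neutral amino acids (2.17 ± 0.20), and SLC1A3, a glutamate carrier (1.91 ± 0.25). The 7 became 3 when 1/7MC+Pyr replicate 1 or MC replicate 2 was left out, and 4 when replicate 3 of either group was. In the oxidative stress list 5 of 22 were higher and 1 lower, a share near the 27.8% of all genes. Of these, GPX3, a secreted glutathione peroxidase, passed both fits (1.19 ± 0.22, adjusted p = 0.00154).

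Eye field and forebrain factors lay below MC with pyruvate, while the median of that list in 1/7MC was 0.72 above MC. With pyruvate 10 of 16 were lower and 0 higher, 8 in both fits, at a median of -0.85. RAX, the factor that specifies the eye field, measured 12.5, 12.2 and 11.6 CPM in MC, 7.42, 5.75 and 10.02 CPM in 1/7MC and 0.480, 0.633 and 0.675 CPM in 1/7MC+Pyr. It lay -4.33 ± 0.30 from MC (adjusted p = 8.25e-07; -4.37 with MC replicate 1 alone) and -3.69 ± 0.29 from 1/7MC (adjusted p = 8.35e-06), with no pyruvate library near either group. SIX6, a later factor of the retina, measured 2.101, 1.92 and 2.26 CPM in MC, 25.4, 19.4 and 29.1 CPM in 1/7MC and 0.617, 1.21 and 0.533 CPM in 1/7MC+Pyr (-1.38 ± 0.29 from MC, adjusted p = 0.00374). PAX6, the general eye and forebrain factor, measured 24.3, 19.1 and 19.9 CPM in MC, 65.6, 70.5 and 70.1 CPM in 1/7MC and 10.01, 10.8 and 7.21 CPM in 1/7MC+Pyr (-1.17 ± 0.21 from MC, adjusted p = 0.00147).

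The forebrain repressor gene FEZF1 fell from 51.2–55.8 to 3.80–4.72 CPM (-3.66 ± 0.18, adjusted p = 5.53e-08), and LHX5 (-1.86 ± 0.15) and RLBP1, a retinaldehyde carrier (-2.99 ± 0.32), were lower as well. In 1/7MC, FEZF1 and LHX5 were also below MC (-3.61 ± 0.17 and -3.19 ± 0.16), while RLBP1 was above it (2.28 ± 0.25). Of 12 genes of the neural ectoderm 1 was higher and 2 lower, a share near the 27.8% of all genes. CRABP1, a retinoic acid carrier, fell from 202–223 to 46.6–68.1 CPM (-1.94 ± 0.24), and DLX5, a homeobox factor, was lower (-1.62 ± 0.25). TUBB3, the neuronal tubulin, was higher by 0.38 ± 0.12 (adjusted p = 0.0333; 0.179 with MC replicate 1 alone). The sum of PAX6 and TUBB3 was 104 to 107 CPM in MC, 114 to 132 CPM in 1/7MC+Pyr and 230 to 264 CPM in 1/7MC.

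Mesoderm genes were 5 higher and 0 lower of 10 tested, 4 in both fits. The mesoderm factors TBXT, HAND1, HAND2, GATA4 and FOXF1 had too few counts to be tested, and MESP1 had no entry. The counts of changed members therefore do not cover them. SNAI2, a repressor of E-cadherin in migrating cells, measured 1.54, 1.53 and 1.37 CPM in MC and 19.6, 15.2 and 16.8 CPM in 1/7MC+Pyr (3.53 ± 0.16, adjusted p = 3.93e-08). MEOX1, a somite factor, rose from 0.0371–0.287 to 2.60–3.20 CPM and TWIST1, a factor of mesenchyme, from 3.15–3.22 to 6.21–6.68 CPM (1.03 ± 0.12). TBX2 measured 0.223–0.371 CPM in MC and 0.805–0.959 CPM with pyruvate (1.60 ± 0.30), far under its 13.5–14.7 CPM in 1/7MC. The part of the fibroblast marker sum, which moved the same way, was not tested here either. Of 8 endoderm and hypoblast genes 5 were higher, 4 in both fits, but 3 of the 5 (COL4A1, LAMB1 and SPARC) also encode matrix proteins. APOA1, an apolipoprotein, rose from 169–199.7 to 293–326 CPM (0.72 ± 0.09). TTR, a thyroid hormone carrier, had 3 counts over the MC libraries and 80 over the pyruvate libraries. Of the defining factors, SOX17 held 1 to 7 counts in each of the 6 libraries, and FOXA2 held 1, 109 and 97 counts in MC and 0, 0 and 1 in 1/7MC+Pyr, so that MC replicate 1 sat with the pyruvate libraries. GATA6, another of them, did not rise: it held 52, 54 and 47 counts in MC and 41, 39 and 13 in 1/7MC+Pyr. Its mean was 1.64 CPM in MC and 0.996 CPM in 1/7MC+Pyr.

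Of 12 trophectoderm genes 2 were higher and 3 lower, 2 and 1 in both fits, beside 27.8% and 9.34% of all genes changed either way. GATA3, a trophoblast factor, rose from 0.482–0.728 to 1.99–2.60 CPM (1.88 ± 0.33, adjusted p = 0.00114) and DAB2, an endocytic adaptor, by 1.41 ± 0.12, while KRT7 fell as given above. The lower count was 1 without MC replicate 2 or 1/7MC+Pyr replicate 3. CDX2, the defining factor, held 0 to 5 counts in each of the 6 libraries. In the endothelial and blood list 4 of 12 were higher and 0 lower, beside 27.8% of all genes changed either way. In both fits 2 were higher. ERG, an endothelial factor, was at 0 in all MC libraries and at 0.720, 0.403 and 0.284 CPM in 1/7MC+Pyr, at least 14.7-fold higher against a floor of 3 counts over the group, and EMCN rose from 0.0958–0.252 to 0.959–1.20 CPM (2.64 ± 0.31). Leaving out 1/7MC+Pyr replicate 1 or MC replicate 2 turned the 4 into 2. Of the HOX genes 9 of 32 could be tested and 3 were lower, beside 12.6% of all genes lower and 27.8% changed either way. None of the 3 passed both fits. They were HOXA5, HOXA11 and HOXC6, of which HOXC6 reached the highest level, 1.37 CPM in MC replicate 2. Leaving out MC replicate 2 left 0 lower, and leaving out 1/7MC+Pyr replicate 2 or 3 left 1.

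Among FGF ligands and receptors 2 of 17 were higher and 5 lower, 1 and 2 in both fits. FGF8, a ligand of forebrain and mid-hindbrain signalling centres, measured 3.05, 2.78 and 2.71 CPM in MC, 1.08, 1.11 and 0.809 CPM in 1/7MC and 0.171, 0.288 and 0 CPM in 1/7MC+Pyr (-4.12 ± 0.57 from MC, adjusted p = 2.13e-04). FGF17, its close relative, measured 0.319–0.408 CPM in MC and 0 counts in all pyruvate libraries, at least 11.5-fold lower. FGF1 rose from 0.0280–0.334 to 0.959–1.21 CPM. FGF2, basic FGF itself, measured 8.71, 12.2 and 12.1 CPM in MC and 6.72, 10.3 and 8.56 CPM in 1/7MC+Pyr (-0.37 ± 0.18, 95% interval -0.75 to 0.019); without MC replicate 1 it was called lower. Leaving out 1/7MC+Pyr replicate 1 or 3 turned the 5 lower members into 3, as did leaving out replicate 2 or 3 of MC. The main receptor gene FGFR1 overlapped, with an interval of -0.36 to 0.19, and FGFR3 was lower (-0.79 ± 0.14, adjusted p = 0.00163).

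Readouts of the FGF and ERK pathway moved both ways. Of 23 tested, 10 were higher and 3 lower, 6 and 2 in both fits. The feedback inhibitor genes SPRY1 and SPRY2 rose, by 0.76 ± 0.12 and 1.04 ± 0.08 (adjusted p = 6.63e-04 and 1.76e-06), as did PHLDA1 (1.59 ± 0.11), HBEGF (0.95 ± 0.13), an EGF-receptor ligand, and MYC, from 9.65–10.8 to 21.7–27.3 CPM (1.25 ± 0.14). The ERK phosphatase gene DUSP6 differed by 0.19 ± 0.09 (interval -0.00026 to 0.38). EGR1, a serum-response transcription factor, measured 563, 595 and 601 CPM in MC, 100.03, 80.9 and 103 CPM in 1/7MC and 56.0, 48.2 and 48.5 CPM in 1/7MC+Pyr. It lay -3.53 ± 0.12 from MC (adjusted p = 8.98e-09; -3.45 with MC replicate 1 alone) and -0.89 ± 0.11 from 1/7MC (adjusted p = 1.58e-04).

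The immediate early list, of which EGR1 is also a member, had 12 of 16 lower and 4 higher, 8 and 3 in both fits. FOS, the partner of JUN in the AP-1 factor, measured 155, 164 and 158 CPM in MC, 26.7, 21.9 and 26.8 CPM in 1/7MC and 12.2, 13.7 and 14.7 CPM in 1/7MC+Pyr (-3.55 ± 0.17 from MC, adjusted p = 5.38e-08). FOSB fell from 16.2–19.3 to 0.651–0.994 CPM (-4.36 ± 0.24), EGR3 from 2.26–3.70 to 0.411–0.462 CPM (-2.71 ± 0.38), and DUSP1, an early phosphatase, from 75.9–82.7 to 25.4–27.3 CPM (-1.61 ± 0.09). In each of these genes the pyruvate libraries lay below MC without overlap, beside 43.1% of all genes without overlap either way. The members above MC in both fits were MYC, KLF6 (0.81 ± 0.13) and JUNB (0.88 ± 0.16).

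Genes of the TGF-beta response were 19 higher and 1 lower of 22, 15 and 0 in both fits, with a median of 1.21. TGFB2, a ligand, measured 13.8, 11.7 and 11.3 CPM in MC and 96.2, 97.0 and 101 CPM in 1/7MC+Pyr (3.00 ± 0.18, adjusted p = 2.09e-07). TGFBR2, a receptor, rose from 7.497–8.46 to 36.7–47.9 CPM (2.36 ± 0.17). The target genes TGFBI, a secreted adhesion protein, and PMEPA1, a feedback inhibitor, rose by 3.15 ± 0.17 and 3.17 ± 0.17 (adjusted p = 1.43e-07 and 1.22e-07). BAMBI, a decoy receptor, rose by 2.21 ± 0.18, with 9.22–11.4 CPM in 1/7MC+Pyr against 2.07–2.30 CPM in MC and 56.9–67.5 CPM in 1/7MC. The lower member was CCN1 (-0.52 ± 0.12, adjusted p = 0.00705; 0.135 with MC replicate 1 alone). ACTA2 and TAGLN on this list are also fibroblast markers, whose sum moved the same way, and the part of that sum in the result was not tested.

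Of 17 BMP ligands and targets 6 were higher and 3 lower, 5 and 1 in both fits. BMP4 rose from 36.9–41.6 to 71.5–87.9 CPM (1.00 ± 0.11), BMP2 from 0.700–1.09 to 2.24–3.71 CPM (1.68 ± 0.27) and BMP5 from 0.168–0.415 to 1.20–1.35 CPM (2.18 ± 0.35). BMP7 measured 39.9, 41.5 and 39.5 CPM in MC and 16.1, 17.3 and 15.4 CPM in 1/7MC+Pyr (-1.31 ± 0.12, adjusted p = 5.89e-06). The target genes ID1 and ID2 differed by 0.096 ± 0.16 and 0.29 ± 0.17 (intervals -0.25 to 0.44 and -0.077 to 0.66), and ID3 was lower (-0.61 ± 0.14, adjusted p = 0.00702; 0.11 with MC replicate 1 alone). Of 19 WNT genes 6 were higher and 1 lower, beside 27.8% of all genes changed either way. In both fits 3 were higher and 0 lower: LEF1 (above), the ligand gene WNT5A (1.53 ± 0.19) and the receptor gene FZD10 (0.50 ± 0.10). AXIN2, a general target of the pathway, differed by 0.10 ± 0.13 (interval -0.18 to 0.38). Leaving out 1/7MC+Pyr replicate 1 or MC replicate 2 turned the 6 into 3.

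Of 14 genes of the insulin-like growth factor system 6 were higher and 2 lower, 4 and 0 in both fits. IGF2 measured 41.6, 41.1 and 41.6 CPM in MC, 540.4, 635 and 496 CPM in 1/7MC and 239, 168 and 184 CPM in 1/7MC+Pyr (2.25 ± 0.18 from MC, adjusted p = 2.44e-06; -1.50 ± 0.17 from 1/7MC, adjusted p = 1.09e-04). IGFBP7, a matrix-bound binding protein, rose from 7.03–8.54 to 59.1–71.7 CPM (3.11 ± 0.12) and IGFBP6 from 21.4–23.1 to 38.8–60.2 CPM (1.05 ± 0.16). IGF2 is imprinted in mammals, and the other imprinted genes did not move as 1 set. PEG10 measured 272, 275 and 277 CPM in MC, 545, 625 and 489.9 CPM in 1/7MC and 123.4, 152 and 125 CPM in 1/7MC+Pyr, so its difference from MC was 1.01 ± 0.13 in 1/7MC and -1.04 ± 0.13 with pyruvate (adjusted p = 6.26e-05 and 1.07e-04). DLK1, a Notch-like surface protein, fell from 409–425 to 34.7–54.8 CPM (-3.23 ± 0.21, adjusted p = 5.42e-07) and MEST from 365–389.8 to 177–191 CPM (-1.06 ± 0.16). PLAGL1 and CDKN1C rose, by 1.01 ± 0.11 and 1.24 ± 0.23. Over the list of chromatin regulators and imprinted genes 5 of 20 were higher and 6 lower, 3 and 3 in both fits. The maintenance methyltransferase gene DNMT1 was lower (-0.27 ± 0.09, adjusted p = 0.046; 0.373 with MC replicate 1 alone).

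Genes of S phase and mitosis were lower for 16 of 30 and higher for 0, but only BUB1, a spindle checkpoint kinase, passed both fits (-0.55 ± 0.08, adjusted p = 3.83e-04). The median was -0.32. MKI67, the proliferation antigen Ki-67, measured 565, 599.7 and 583 CPM in MC and 379, 339 and 373 CPM in 1/7MC+Pyr (-0.68 ± 0.18, adjusted p = 0.0151; 0.175 with MC replicate 1 alone). PCNA, the replication clamp, overlapped between the groups (0.11 ± 0.17, interval -0.27 to 0.48). The 16 became 8 without MC replicate 2 or without MC replicate 3. CDK inhibitors rose in part. CDKN2B, an inhibitor of CDK4 and CDK6 that TGF-beta induces, measured 6.55, 3.10 and 2.49 CPM in MC and 95.7, 83.0 and 91.8 CPM in 1/7MC+Pyr (4.46 ± 0.31, adjusted p = 1.02e-06; 3.80 with MC replicate 1 alone). CDKN2A rose from 3.38–4.43 to 13.2–13.5 CPM (1.73 ± 0.18), CDKN1A, a p53 target, was lower (-0.27 ± 0.08, adjusted p = 0.0192; 0.34 with MC replicate 1 alone), and the D cyclin gene CCND3 rose by 1.09 ± 0.09. Over that list 9 of 20 were higher and 2 lower, 5 and 0 in both fits.

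Interferon-stimulated genes were higher for 13 of 22 and lower for 1, 11 and 0 in both fits, with a median of 1.22. ISG15, a ubiquitin-like modifier, measured 0.644, 1.02 and 0.557 CPM in MC, 12.2, 12.5 and 16.4 CPM in 1/7MC and 11.1, 10.1 and 9.06 CPM in 1/7MC+Pyr (3.75 ± 0.31 from MC, adjusted p = 3.00e-06). IFI6 rose from 0.479–0.672 to 8.56–11.9 CPM (4.15 ± 0.24), OAS1Y, a sensor of double-stranded RNA, from 0.928–1.51 to 16.1–20.3 CPM (3.84 ± 0.28), and MX1, an antiviral GTPase, from 1.85–2.02 to 10.2–12.2 CPM (2.49 ± 0.21). The regulator STAT2 differed by 0.22 ± 0.12 (interval -0.037 to 0.47), while IRF9, its DNA-binding partner, rose by 1.93 ± 0.18 (adjusted p = 7.10e-06). The fibroblast marker sum was higher beside these genes too, and its part was not tested. OAS1Y has close relatives in the bovine genome, and counts shared between such copies are uncertain. Among heat shock genes and chaperones 3 of 19 were higher and 5 lower, 2 and 0 in both fits: SERPINH1, the collagen chaperone, rose from 978–1086 to 1384–1690.2 CPM (0.55 ± 0.09) and DNAJB9 by 0.63 ± 0.11. The count of lower heat shock genes was 3 when replicate 3 of 1/7MC+Pyr or replicate 2 or 3 of MC was left out, and 0 with MC replicate 1 alone.

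Genes that passed both fits without overlap, and averaged at least 1 CPM in the higher group, were ranked by the smaller of their 2 log2 differences. The 12 that rose most were mostly genes that MC barely expressed. GALNT5, a glycosyltransferase, had 0 counts in MC and 1.71, 1.01 and 1.31 CPM in 1/7MC+Pyr, at least 42.1-fold higher. PTHLH and SLC22A3 had 1 and 2 counts over the MC libraries against 195 and 125 over the pyruvate libraries. SRPX2, ADAM12 and CDH12 rose by 6.19 ± 0.60, 4.84 ± 0.45 and 4.80 ± 0.35, from at most 0.415 CPM in any MC library. SRPX2 held 1, 0 and 3 counts in MC and CDH12 held 1, 1 and 2, so their differences rest on few counts. The potassium channel genes KCNMA1 and KCNE4 rose by 4.88 ± 0.25 and 4.91 ± 0.41 (adjusted p = 9.57e-08 and 3.78e-06), KCNMA1 from 0.334–0.670 to 15.3–17.0 CPM. XAF1, an interferon-inducible gene, measured 0.0560–0.334 CPM in MC and 3.20–4.15 CPM in 1/7MC+Pyr. The secreted and matrix genes CRISPLD2 and FMOD rose from 2.86–3.86 to 65.7–101 CPM and from 1.00–1.20 to 22.7–38.3 CPM, and ATP6AP1L from 1.34–1.47 to 31.2–34.1 CPM.

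The 12 that fell most by the same ranking were BNIP3, FOSB, RAX, FGF8, FEZF1, FOS and EGR1 above and 5 genes that differed in their level in 1/7MC. KLHL14 measured 3.84, 5.97 and 3.86 CPM in MC, 3.68, 4.61 and 4.50 CPM in 1/7MC and 0.171, 0.230 and 0.213 CPM in 1/7MC+Pyr, a difference of -4.44 ± 0.32 from MC (adjusted p = 1.04e-06) and -4.35 ± 0.32 from 1/7MC (adjusted p = 4.53e-06). ROBO3, an axon guidance receptor, measured 7.98, 9.80 and 8.72 CPM in MC, 5.63, 4.96 and 3.84 CPM in 1/7MC and 1.06, 0.863 and 0.142 CPM in 1/7MC+Pyr (-3.65 ± 0.40 from MC and -2.78 ± 0.40 from 1/7MC), and 1/7MC was itself below MC (-0.88 ± 0.33, adjusted p = 0.0466). NDST4, a heparan sulfate sulfotransferase, fell from 1.09–1.45 to 0–0.107 CPM (-4.49 ± 0.49), and 1/7MC differed from MC by -0.49 ± 0.33 (adjusted p = 0.24). ACTA1, the skeletal muscle actin, fell from 45.4–46.0 to 2.82–4.35 CPM (-3.71 ± 0.17), and was at 5.38–6.99 CPM in 1/7MC (-2.89 ± 0.16 from MC). NMBR, a neuromedin receptor, fell from 1.04–1.24 to 0.0355–0.115 CPM (-3.82 ± 0.60), and held 0–0.0578 CPM in 1/7MC. The ranking itself required that the libraries of MC and 1/7MC+Pyr did not overlap.

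The genes whose direction did not hold show the size of the gene-model difference. NPAS2, a clock-related factor, measured 0.0840, 627 and 769 CPM in MC and 0.617, 0.489 and 0.497 CPM in 1/7MC+Pyr, RPL19, a ribosomal protein, 0.168, 135 and 129.7 and 0.377, 1.24 and 0.178 CPM, and KLK1, a kallikrein, 0, 13.2 and 14.3 and 0.0343, 0.115 and 0.0355 CPM. In all of them MC replicate 1 sat nearer to the pyruvate libraries and MC replicates 2 and 3 stood apart, so no difference between the groups is reported for them. TTK, SNRPN and ATP8, members of the mitosis, imprinting and mitochondrially encoded lists, were left out of those counts by the same rule.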

How the data were processed

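Poly-A RNA was sequenced in 12 libraries, of which the 3 of MC and the 3 of 1/7MC+Pyr were compared. The tools named, per the submitters' processing notes, are featureCounts, Subread 2.0, HISAT2 2.1.0 and fastp 0.19.7, and the build is bosTau9. The gene annotation is not given in the sources used here. The authors deposited whole-number counts per gene, which are not normalised. A gene-length column that the authors deposited beside them, and a deposited table named TPM, were not used, since the counts carry the depth.

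Of 19285 entries, 400 that share an Ensembl or Entrez identifier with another were dropped, and 18803 of the remaining 18885 were given a symbol from a RefSeq gene table of another build, so no coordinates are printed. The counts of all 12 libraries were fitted with edgeR 4.0.16 in R 4.3.3 (TMM scaling, filterByExpr, 1 coefficient per group, quasi-likelihood F test), which left 13920 genes, with Benjamini-Hochberg adjustment at a threshold of 0.05. The same model with MC represented by its replicate 1 tested 14361 genes, and its lone library is assumed to vary like those of the other groups. Dividing the log2 fold change by the root of the F statistic gave the SE, intervals are at 95%, and CPM use TMM-scaled library sizes. The scripts were tested on simulated data.

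The comparison and its 38 gene lists were chosen with earlier results of these data known. The 142 genes named by rule include the 12 largest rises and 12 largest falls that pass both fits without overlap and with a mean of at least 1 CPM in the higher group, the up to 4 members of each list that differ most in both fits, a preset list and the most abundant changed genes. NPAS2, RPL19 and KLK1, picked because their direction did not hold, complete the 142. Other list members were named after their values were seen. A few list members are counted in their lists but not reported here by name. DESeq2 1.42.0, RLE scaling, other filters, fewer libraries and a replicate block were tried as alternatives. Figures were drawn with Python 3.11.15 and matplotlib 3.10.9.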

Additional observations from a re-analysis of the deposited data

How the results depend on the processing

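With MC represented by replicate 1 alone, 1394 genes were changed, 942 higher and 452 lower, against 3949, 2115 and 1834 with all MC libraries. Leaving out 1 library at a time gave 2571 (without MC replicate 2) to 5151 (without MC replicate 1) changed genes, 1468 to 2977 higher and 1103 to 2174 lower. With the direction held the ranges were 2546 to 4305, 1468 to 2414 and 1078 to 1891. With 1 library left out, the lower genes moved most as a ratio to the full count. They also fell to 1131 when MC replicate 3 was left out and 1205 when 1/7MC+Pyr replicate 3 was. With the direction held these were 1106 and 1159. In number of genes, before the direction rule, the higher ones moved most, from 2115 to 2977 without MC replicate 1. With the direction held, RLE scaling gave 3888 genes, no low-count filter 3683, a stricter filter 3816 (1727 higher and 2089 lower, where the usual filter had 2115 and 1751), the 6 libraries alone 2949 and DESeq2 4377. The replicate block gave 3602 changed genes, 3534 with the direction held. The deviations of same-numbered libraries from their group means correlated at 0.024, 0.013 and -0.040. The gene-model difference within MC enters these deviations, so they cannot show whether the samples were paired. Of the 142 named genes, all kept their side and direction under DESeq2, RLE scaling and no low-count filter. With MC replicate 1 alone the sign turned for SLC2A1 (0.050), PDK4 (-0.027), NPAS2 (2.63), RPL19 (1.86) and KLK1 (4.23), and LIN28A, PRDM14 and CDH1 lost the call (adjusted p = 0.18, 0.178 and 0.0733 in edgeR). Other turned signs were all of values near 0. OTX2 stood at 0.012 with the 6 libraries alone, and with 1 library left out OTX2 ranged from -0.072 to 0.055, SALL4 from -0.147 to 0.029, SLC2A1 from -0.159 to 0.078 and PDK4 from -0.087 to 0.641. FGF2, MPC1 and SLC16A1 gained a call without MC replicate 1. The cause of these shifts was not tested. Genes with a few counts per library, among them the HOX genes and PDK4, are limited by depth, and counting error sets the precision of their levels.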

Other observations

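Several of the differences that pyruvate left were smaller where FGF was added as well. The comparison of 1/7MC+Pyr+FGF with 1/7MC+Pyr, which shares the 1/7MC+Pyr libraries with the comparison above, called 384 genes, 89 higher and 295 lower, with edgeR's quasi-likelihood test. ISG15 measured 2.97, 1.94 and 4.39 CPM in 1/7MC+Pyr+FGF, -1.70 ± 0.26 from 1/7MC+Pyr (adjusted p = 0.00592), and IFI6 2.86, 1.97 and 3.43 CPM (-1.86 ± 0.20, adjusted p = 6.79e-04). PLAUR measured 10.8, 9.62 and 10.1 CPM (-1.36 ± 0.17, adjusted p = 0.00237), PMEPA1 63.7, 82.3 and 86.8 CPM (-1.19 ± 0.16, adjusted p = 0.00276) and COL1A2 2222, 2905 and 3049 CPM (-0.83 ± 0.20, adjusted p = 0.0436). These levels lay between those of 1/7MC+Pyr and MC in every library of the FGF group for all 5 of these genes. The fibroblast marker sum was 23412 to 32318 CPM there, lower than the 34396 to 51153 CPM of 1/7MC+Pyr, and its part in these differences was not tested.

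The median difference from MC was -0.82 with FGF against -0.56 with pyruvate alone for epithelial junction genes, and -0.097 against -0.47 for the 6 simple keratins. These medians share the MC libraries, and their difference was not tested. EPCAM measured 10.2, 10.9 and 8.70 CPM in 1/7MC+Pyr+FGF, further from MC than with pyruvate alone (-1.07 ± 0.11, adjusted p = 5.93e-04), and CDH1 measured 103, 144 and 100.2 CPM (-0.95 ± 0.20, adjusted p = 0.0261). LDHA measured 122, 88.5 and 126 CPM (0.17 ± 0.14 from 1/7MC+Pyr, adjusted p = 0.513), RAX 0.773, 0.514 and 1.22 CPM (0.49 ± 0.33, adjusted p = 0.433) and EGR1 59.6, 64.9 and 70.5 CPM (0.35 ± 0.11, adjusted p = 0.109).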
